A study of Homo sapiens with 4 samples.

Results

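The SLC35 genes encode a family of membrane transporters, most of which sit in the Golgi apparatus or the endoplasmic reticulum and bring activated sugars and related nucleotides into the lumen. Sugars are activated in the cytosol or nucleus by coupling to a nucleotide, as in UDP-galactose, GDP-fucose or CMP-sialic acid. The transporter exchanges the activated sugar for the spent nucleotide, and luminal glycosyltransferases then add the sugar to glycoproteins, glycolipids and proteoglycans. Cell-surface sialic acid, fucose and sulfated chains, which depend on this supply, take part in the adhesion and receptor binding of carcinoma cells. Several family members, among them most of the SLC35E, SLC35F and SLC35G genes, are grouped by sequence, with no settled substrate.

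Members were found by name. Transcript accessions were mapped to gene symbols, and every symbol made of SLC35, a letter and a number was taken, without antisense genes and pseudogenes. This gave 30 genes of 22850 symbols. Where a gene had several transcript rows, the row with the highest mean count over all 4 libraries stood for it, a choice that does not use the groups. Rows of a gene share reads, so they are not replicates of each other. SLC35E2A was left out because RefSeq lists it as a transcribed pseudogene. Of the 30 members, 23 passed the filter on low counts and were tested. The family was put forward with the rise of SLC35F5 already known, so the values of that gene are given as a description with no p-value.

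PC-3M-luc cells received RNAi against LSD1 (2 libraries) or control RNAi (2 libraries). PC-3M-luc is a luciferase-carrying, metastatic derivative of the androgen-independent human prostate carcinoma line PC-3. All cells were at passages 17 to 20, were transfected with the lipid reagent Dharmafect 2 and were harvested 72 h later, and were kept in EMEM with 10% serum. The KDM1A gene encodes LSD1, a histone lysine demethylase of corepressor complexes that uses a flavin cofactor. The labels call the 2 libraries of a group biological replicates and do not say whether they came from separate cultures, so the p-values measure the spread between these samples, which may be technical. No label names the duplex sequences or how many were used.

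The libraries held 12040531 and 12831194 gene counts after LSD1 RNAi, against 12474027 and 12410579 after control RNAi. In these libraries 3 counts stood for 0.232 to 0.247 CPM, which are read counts scaled to library size. KDM1A was at 17.8 and 18.1 CPM in LSD1 RNAi libraries, against 235 and 238 CPM in control RNAi libraries, which is 13.2-fold lower (log2 fold change -3.72 ± 0.0973 SE, edgeR quasi-likelihood adjusted p = 2.77e-24). Of 7 epithelial or carcinoma-line markers all were expressed, with a summed level of 2497 to 2514 CPM after LSD1 RNAi and 2574 to 2642 CPM after control RNAi. Within that sum members moved apart, and KRT18, KRT19 and CD44 did not pass, at log2 fold changes of -0.12, -0.07 and 0.13. The epithelial genes CDH1 (2.42-fold), EPCAM (1.42-fold) and KRT8 (1.39-fold) rose, and the mesenchymal filament gene VIM fell by 0.33 on the log2 scale, with 906 and 888 CPM after LSD1 RNAi and 1114 and 1140.0 CPM after control RNAi. KLK3, KLK2 and FOLH1, which mark luminal prostate cells, were at 0 counts in every library, while ACP3 of the same list rose 2.41-fold, at 5.01 CPM after LSD1 RNAi and 2.08 CPM after control RNAi. The leukocyte genes PTPRC and CD3E, the fibroblast gene LUM and the endothelial gene CDH5 had 0 counts in all 4 libraries, as did the erythroid gene HBB and the liver gene TTR. Summed over 7 leukocyte markers the level was 47.6 and 50.0 CPM in LSD1 RNAi libraries, against 91.2 and 88.9 CPM in control RNAi libraries, nearly all of it CD68, a lysosomal gene also used by other cells, and LYZ of that list rose 4.73-fold at 1.197 CPM after LSD1 RNAi and 0.243 CPM after control RNAi. Summed over 8 fibroblast and endothelial markers it was 113 and 111 CPM after LSD1 RNAi, against 70.2 and 81.9 CPM after control RNAi. In that list the endothelial receptor gene KDR rose 2.25-fold, with 57.9 and 52.3 CPM after LSD1 RNAi and 20.4 and 28.5 CPM after control RNAi, COL1A2 rose 1.52-fold, PECAM1 fell by 0.73 on the log2 scale, and COL1A1, at 29.4 CPM after LSD1 RNAi and 31.7 CPM after control RNAi, did not pass. The part of these markers in the SLC35 values was not tested.

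More SLC35 genes rose than fell after LSD1 RNAi. Of the 23 tested members 8 rose, 4 fell and 11 did not pass at an adjusted p under 0.05 (edgeR quasi-likelihood test, Benjamini-Hochberg over all 13248 genes tested). The 12 called members make 52.2%, beside 36.1% of all genes tested. Called higher were 34.8% of the members, beside 18.2% of all genes, and called lower were 17.4%, beside 17.9%. The excess of rises is not particular to the family. Of 207 tested solute carrier genes outside SLC35, 32.9% were called higher and 11.6% lower. Without SLC35F5, 7 of 22 members rose, or 31.8%, and 4 fell, which makes 50.0% called. The genes that rose were SLC35A1, SLC35A4, SLC35D1, SLC35D4, SLC35E1, SLC35F2, SLC35F5 and SLC35H1, and the genes that fell were SLC35A5, SLC35E4, SLC35F3 and SLC35G1. DESeq2 called 8 members higher and 4 lower as well, with 25.5% of all genes called. The median log2 fold change was 0.13 over the members and 0.002 over all genes, and the median absolute log2 fold change was 0.36 over the members and 0.23 over all genes. Only SLC35F5 and SLC35D4 changed at least 2-fold, which is 8.7% of the members beside 4.2% of all genes. Without SLC35F5, whose rise was known when the family was put forward, it is 1 of 22, or 4.55%. For 18 of the 23 members, or 78.3%, both LSD1 RNAi libraries lay on the same side of both control RNAi libraries, beside 67.2% of all genes.

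**Figure D1:**
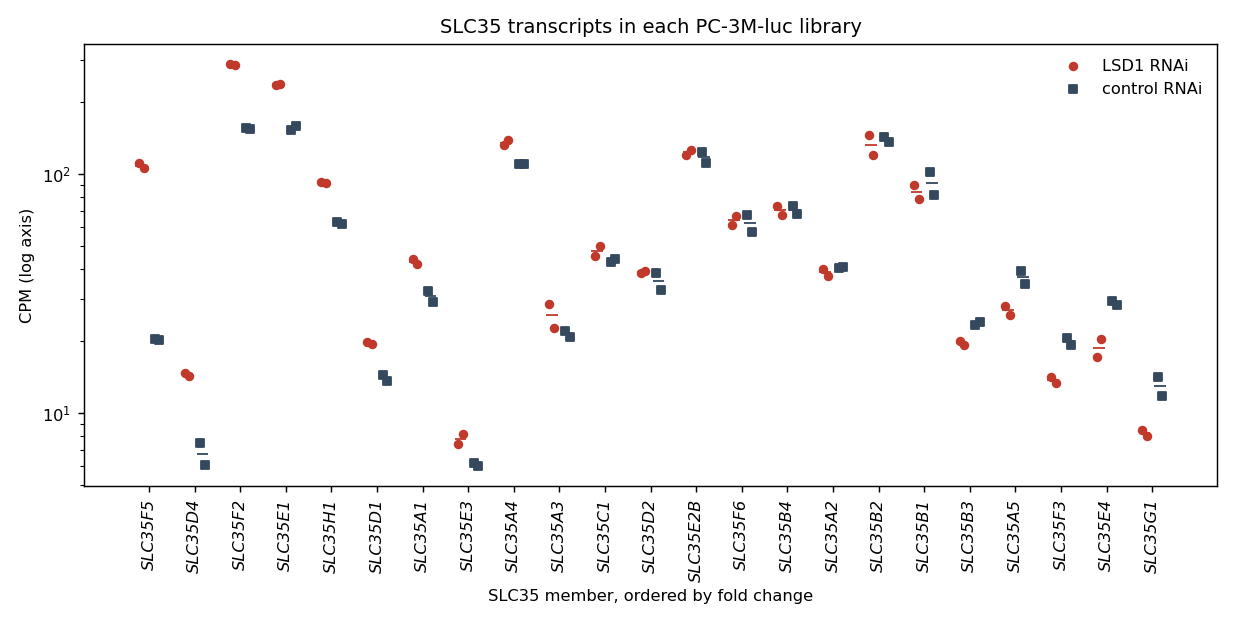
CPM on a log axis in each library for the 23 tested SLC35 members, ordered by fold change, with red circles for the 2 LSD1 RNAi libraries, dark squares for the 2 control RNAi libraries and short lines for the group means. SLC35F5 is separated by the widest gap, at 111 and 106 CPM after LSD1 RNAi and 20.5 and 20.3 CPM after control RNAi.

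**Figure D2:**
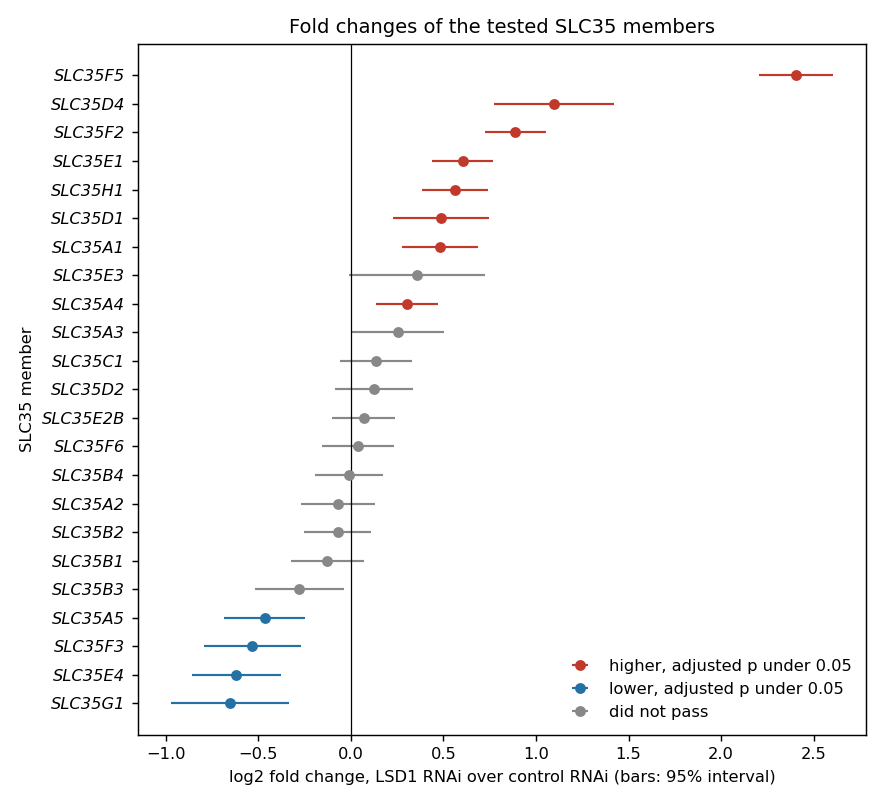
Log2 fold change of LSD1 RNAi over control RNAi for the same 23 members, with 95% intervals from the edgeR fit. Red points rose, blue points fell and grey points did not pass. The points run from 2.41 for SLC35F5 to -0.65 for SLC35G1.

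SLC35F5, a predicted transporter whose substrate is not settled, changed most. Its transcript (NM_025181) had 1356 and 1369 counts, or 111 and 106 CPM, in LSD1 RNAi libraries, against 255 and 247 counts, or 20.5 and 20.3 CPM, in control RNAi libraries. Both LSD1 RNAi libraries lay far above both control RNAi libraries, and replicates of a group lay close together. The ratio was 5.30 (95% interval 4.62 to 6.09), or 2.41 ± 0.0979 SE on the log2 scale. By size of change it stood at rank 10 of 2414 genes called higher. Over 13 alternative settings its log2 fold change stayed between 2.37 and 2.44.

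SLC35F5 and SLC35E1 were the members called higher that held any of 4 words of 7 bases, which were TACTTCG, its near neighbour ACTTCGA, and the unlike GCGTACA with its shifted form CGCGTAC, in the coding sequence or 3′ UTR of the GENCODE transcript paired with their row. These words had been picked from earlier fold changes of these same libraries as candidate seed matches of the LSD1 duplex. The stretches are shown because they lie in the gene with the widest change and in one of its relatives, with the word in capitals, and all of them are coding sequence.
SLC35F5: tcctctgaactTACTTCGtatgtttttac
SLC35F5: tggatttgaggACTTCGAgtttcccaata
SLC35E1: ccttcggcaagTACTTCGcgtccgtgtca
Among the 21 tested members with a paired transcript, 2 held such a word, or 9.52%, beside 14.7% of 12815 genes searched. A further pair, CTAGAAG and its shifted form TAGAAGA, was in 5 of the 21 members, or 23.8%, beside 32.8% of genes. Its holders SLC35B1, SLC35B4, SLC35E2B and SLC35E3 did not pass the test, and its holder SLC35G1 fell. SLC35F5 held its words at separate places. Whether a duplex acts on these sites was not tested.

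The promoters of SLC35F5, SLC35F2 and SLC35E1 are given because these genes had the largest rises among members listed in the RefSeq promoter table (GRCh38.p14, windows around the gene start). Capitals mark the motifs searched on both strands, which were the GC box GGGCGG, the CCAAT box CCAAT, the E-box CACGTG, the E2-box CAGGTG that SNAIL-family repressors bind, and the cAMP response element TGACGTCA.
SLC35F5, chr2:113756593-113756892, minus strand: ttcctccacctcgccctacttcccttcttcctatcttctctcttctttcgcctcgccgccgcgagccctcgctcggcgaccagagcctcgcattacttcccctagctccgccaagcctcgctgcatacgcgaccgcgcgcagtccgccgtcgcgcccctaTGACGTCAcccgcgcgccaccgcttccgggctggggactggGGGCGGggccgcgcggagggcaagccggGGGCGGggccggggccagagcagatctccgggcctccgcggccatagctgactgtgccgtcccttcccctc
SLC35F2, chr11:107858738-107859037, minus strand: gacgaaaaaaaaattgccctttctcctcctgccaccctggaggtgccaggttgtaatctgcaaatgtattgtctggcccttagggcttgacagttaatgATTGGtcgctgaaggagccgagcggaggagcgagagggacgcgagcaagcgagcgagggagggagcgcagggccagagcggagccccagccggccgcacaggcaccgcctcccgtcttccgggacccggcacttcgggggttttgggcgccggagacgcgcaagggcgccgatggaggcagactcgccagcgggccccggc
SLC35E1, chr19:16572366-16572665, minus strand: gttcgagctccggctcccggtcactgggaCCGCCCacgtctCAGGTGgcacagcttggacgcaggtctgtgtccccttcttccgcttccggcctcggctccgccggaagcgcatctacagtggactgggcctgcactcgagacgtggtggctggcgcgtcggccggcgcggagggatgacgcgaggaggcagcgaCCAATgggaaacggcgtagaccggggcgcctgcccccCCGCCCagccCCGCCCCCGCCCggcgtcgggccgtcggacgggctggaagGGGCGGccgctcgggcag
The SLC35F5 window held 1 cAMP response element and 2 GC boxes, the SLC35F2 window 1 CCAAT box, and the SLC35E1 window 5 GC boxes, 1 CCAAT box and 1 E2-box. Of 22 members in the promoter table, SLC35F5 was the 1 with a cAMP response element, which 3.74% of tested genes held. The E2-box was in 2 of 6 members called higher, 0 of 3 called lower and 5 of 10 that did not pass, beside 23.8% of tested genes. These matches describe letters in the windows and no binding.

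SLC35F2, which carries the cytotoxic compound YM155 into cells, was the member with the most reads after LSD1 RNAi. It had 289 and 287 CPM in LSD1 RNAi libraries, against 156 and 155 CPM in control RNAi libraries. The groups were far apart and the replicates nearly equal. It rose 1.85-fold (log2 fold change 0.89 ± 0.0803 SE, edgeR adjusted p = 1.84e-10). SLC35F3, which has been linked to thiamine transport, went the other way, with 14.2 and 13.4 CPM after LSD1 RNAi and 20.7 and 19.3 CPM after control RNAi. It fell by 0.53 on the log2 scale (edgeR adjusted p = 0.00132). SLC35F6 had 61.3 and 67.1 CPM after LSD1 RNAi, against 67.4 and 57.5 CPM after control RNAi, and the groups overlapped. Its log2 fold change of 0.04 did not pass (95% interval -0.15 to 0.23), and its exons overlap those of CENPA, a centromere histone gene with a log2 fold change of -1.02, over 138 nucleotides.

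Of the transporters grouped here by known or reported nucleotide sugar substrates, SLC35A1, SLC35D1 and SLC35D4 rose. SLC35A2, SLC35A3, SLC35B4, SLC35C1 and SLC35D2 did not pass. This grouping is not complete. It leaves out SLC35A4, which rose, and SLC35A5, which fell, and both are given further below. SLC35A1, which carries CMP-sialic acid into the Golgi, had 44.2 and 42.1 CPM in LSD1 RNAi libraries, against 32.6 and 29.1 CPM in control RNAi libraries. Both LSD1 RNAi libraries were higher, and it rose by 0.48 on the log2 scale (95% interval of the ratio 1.21 to 1.61, edgeR adjusted p = 0.000307). SLC35D1, which carries UDP-glucuronic acid and UDP-N-acetylgalactosamine for proteoglycan chains, had 20.0 and 19.5 CPM after LSD1 RNAi, against 14.5 and 13.7 CPM after control RNAi. It rose by 0.49 on the log2 scale (95% interval of the ratio 1.17 to 1.68, edgeR adjusted p = 0.003). SLC35D4, formerly TMEM241 and reported to carry UDP-N-acetylglucosamine, had the second largest rise of the family. It stood at 14.7 and 14.4 CPM after LSD1 RNAi, against 7.48 and 6.09 CPM after control RNAi, a 2.14-fold rise (95% interval 1.71 to 2.68, edgeR adjusted p = 1.59e-06). The control RNAi libraries were unequal for SLC35D4, with the higher 1.23 times the lower.

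SLC35A2, the Golgi UDP-galactose transporter, had 40.3 and 37.4 CPM in LSD1 RNAi libraries, against 40.6 and 40.7 CPM in control RNAi libraries, and its ratio of 0.954 did not pass (95% interval 0.831 to 1.10). Its 3 transcript rows gave ratios of 0.954, 1.05 and 0.874, so the sign hangs on the isoform counted. SLC35A3, a UDP-N-acetylglucosamine transporter, had 28.7 and 22.6 CPM after LSD1 RNAi, against 22.04 and 20.9 CPM after control RNAi. The spread between its LSD1 RNAi libraries was the widest among the tested members, with the higher 1.27 times the lower, and the ratio of 1.19 did not pass (edgeR adjusted p = 0.102). Without LSD1 RNAi replicate 2 it would be called, at a log2 fold change of 0.42, and without LSD1 RNAi replicate 1 the value was 0.07. SLC35D2, which carries UDP-N-acetylglucosamine among other substrates, had a ratio of 1.09 (95% interval 0.944 to 1.26) and SLC35B4, a carrier of UDP-xylose and UDP-N-acetylglucosamine, a ratio of 0.994 (95% interval 0.876 to 1.13). SLC35C1, the Golgi GDP-fucose transporter, had 45.7 and 50.1 CPM after LSD1 RNAi, against 43.0 and 44.2 CPM after control RNAi, and its ratio of 1.10 did not pass (95% interval 0.960 to 1.26). SLC35H1, the current RefSeq symbol of SLC35C2 and a gene linked to fucosylation of Notch, did rise. It had 92.4 and 92.1 CPM in LSD1 RNAi libraries, against 63.2 and 61.6 CPM in control RNAi libraries, 1.48-fold higher (95% interval 1.31 to 1.67, edgeR adjusted p = 4.39e-06), and its 3 rows gave ratios of 1.48 each.

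None of the 4 SLC35B genes passed the test by edgeR or DESeq2. SLC35B2 and SLC35B3 carry PAPS, the sulfate donor, into the Golgi. SLC35B2 had 146 and 119.9 CPM after LSD1 RNAi, against 143 and 136 CPM after control RNAi, so that the LSD1 RNAi libraries lay on both sides of the control RNAi libraries. Its 95% interval of the ratio was 0.840 to 1.08. SLC35B3 had 20.1 and 19.2 CPM after LSD1 RNAi, against 23.5 and 24.2 CPM after control RNAi. Its groups did not overlap, but the ratio of 0.825 missed the threshold (edgeR adjusted p = 0.0622). SLC35B3 was called lower when its transcript rows were summed, with no larger change (log2 fold change -0.27, against -0.277). These rows share reads, so the sum counts reads more than once and that call adds no evidence. SLC35B1, which brings ATP into the endoplasmic reticulum, had 89.7 and 78.9 CPM after LSD1 RNAi, against 102 and 81.9 CPM after control RNAi, and overlapped between groups. Without control RNAi replicate 2 it would be called lower, at a log2 fold change of -0.28, and without control RNAi replicate 1 its value was 0.039.

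The remaining SLC35A and SLC35E genes divided. SLC35A4, for which CDP-ribitol has been proposed as a substrate, had 133 and 139 CPM in LSD1 RNAi libraries, against 110.1 and 109.9 CPM in control RNAi libraries, a 1.23-fold rise (95% interval 1.10 to 1.39, edgeR adjusted p = 0.00403). SLC35A5 had 28.1 and 25.8 CPM after LSD1 RNAi, against 39.5 and 34.8 CPM after control RNAi. It fell by 0.47 on the log2 scale (edgeR adjusted p = 0.000837). SLC35E1 was the second most counted member that rose, at 235 and 239 CPM after LSD1 RNAi, against 154 and 159 CPM after control RNAi, or 1.52-fold (95% interval 1.36 to 1.70, edgeR adjusted p = 4.03e-07). SLC35E4 had 17.2 and 20.4 CPM after LSD1 RNAi, against 29.5 and 28.3 CPM after control RNAi, and fell by 0.62 on the log2 scale (edgeR adjusted p = 9.49e-05). All 4 of these called genes had groups that did not overlap. A called gene is likely to show this with 2 libraries a group, so it adds nothing to the calls. The share was 67.2% over all genes tested, called or not. SLC35E3, at 7.44 and 8.19 CPM after LSD1 RNAi and 6.195 and 6.005 CPM after control RNAi, did not pass (95% interval of the ratio 0.994 to 1.65). SLC35E2B, at 120.3 and 126 CPM after LSD1 RNAi and 124 and 111 CPM after control RNAi, overlapped between groups and did not pass (95% interval of the ratio 0.930 to 1.18).

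SLC35G1, a partner of the calcium sensor STIM1, was the 1 SLC35G gene of 5 that passed the filter, and it fell most in the family. It had 104 and 104 counts, or 8.51 and 8.03 CPM, in LSD1 RNAi libraries, against 176 and 144 counts, or 14.2 and 11.8 CPM, in control RNAi libraries. The ratio was 0.636 (95% interval 0.510 to 0.792, edgeR adjusted p = 0.00122), and its 2 transcript rows held the same counts. The 7 members that failed the filter were SLC35D3, SLC35F1, SLC35F4, SLC35G2, SLC35G3, SLC35G5 and SLC35G6. SLC35G3 had 0 counts in all 4 libraries. SLC35G2 reached 10 and 6 counts after LSD1 RNAi and 9 and 9 after control RNAi, and SLC35G6 reached 11 and 2 counts after LSD1 RNAi and 4 and 3 after control RNAi. The other 4 had at most 4 counts in any library, so no difference was detectable at this depth.

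Scaled by length, SLC35F5 moved furthest in rank between LSD1 RNAi and control RNAi. Levels were taken as mean CPM per kb of the GENCODE transcript paired with the row, which was found for 28 members, and 6 of them kept their rank. That number does not measure a reordering of the family. SLC35F5 displaces the genes it passes, and members that failed the filter are ranked too. SLC35G3, at 0 in both groups, was ranked 28 and 27. SLC35F2 was at rank 1 after LSD1 RNAi with 90.8 CPM per kb and at rank 3 after control RNAi with 49.0 CPM per kb. SLC35B2 was at 65.1 CPM per kb after LSD1 RNAi and at rank 1 after control RNAi with 68.3 CPM per kb, and SLC35B1 was at 52.4 CPM per kb after LSD1 RNAi and 57.2 after control RNAi. SLC35F5 stood at rank 7 with 24.6 CPM per kb after LSD1 RNAi, and at rank 17 with 4.63 CPM per kb after control RNAi. The neighbours of SLC35F5 after LSD1 RNAi were SLC35H1 at 37.7 CPM per kb and SLC35D2 at 24.0 CPM per kb, and the gap to SLC35D2 was within the replicate spread of SLC35F5. SLC35A3 and SLC35E3 were lowest of the tested members, but their paired transcripts of 14759 and 17791 nucleotides may be longer than the ones counted. Summed over the 30 members, the family stood at 1681 and 1644 CPM in LSD1 RNAi libraries, against 1348 and 1273 CPM in control RNAi libraries. Without SLC35F5 the sums were 1571 and 1538 CPM after LSD1 RNAi, against 1327 and 1253 CPM after control RNAi. In bulk RNA, fewer cells with a transcript and less transcript per cell cannot be told apart.

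**Figure D3:**
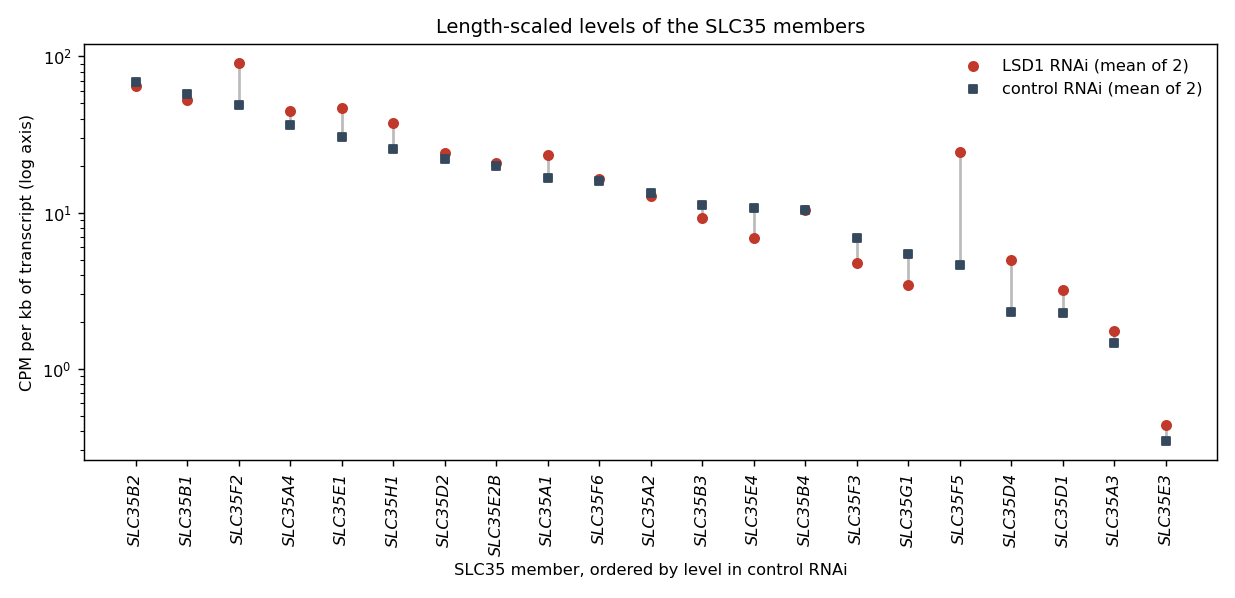
Mean CPM per kb of transcript on a log axis for the 21 tested members with a paired transcript, ordered by level in control RNAi libraries, with red circles for LSD1 RNAi and dark squares for control RNAi (means of 2 libraries, grey lines join the pair). The longest line is that of SLC35F5, at 24.6 CPM per kb after LSD1 RNAi and 4.63 after control RNAi.

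Some members share sequence or genome positions with other genes, and whether strand was used in counting is unknown. In the GENCODE transcripts, 57.4% of the 36-base words of SLC35E2B also lay in SLC35E2A, so the counts of that pair are uncertain. SLC35A1 and SLC35D2 shared 57.2% and 51.9% of their words with same-strand transcripts that GENCODE lists as separate genes. SLC35G3, SLC35G5 and SLC35G6 shared 35.1% to 47.1% of their words, mostly with each other and with SLC35G4. SLC35E4 lies over 1530 nucleotides of DUSP18 on the opposite strand, which had a mean of 58 counts and a log2 fold change of -0.28 that did not pass (edgeR adjusted p = 0.337). SLC35A4 lies over 315 nucleotides of APBB3 on the opposite strand, whose log2 fold change was -0.44. SLC35E1, which rose, shared 16.9% of its words with other genes. Among them it lies over 432 nucleotides of an antisense gene and 266 nucleotides of a gene on the same strand. SLC35F5, SLC35F3, SLC35G1, SLC35A2, SLC35B1 and SLC35B3 shared no 36-base word with another gene, though SLC35B3 lies over 44 nucleotides of a gene on the opposite strand.

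Among the genes that make activated sugars more fell than rose, by a margin that changed with the scaling. Of 31 genes for nucleotide sugar and PAPS synthesis 30 were tested, of which 4 rose, 10 fell and 16 did not pass, or 46.7% called beside 36.1% of all genes, with a median log2 fold change of -0.10. GNPNAT1, which acetylates glucosamine phosphate on the way to UDP-N-acetylglucosamine, had 152 CPM after LSD1 RNAi and 284 CPM after control RNAi and fell by 0.91 on the log2 scale. GFPT1, which makes the first committed step of that route, fell by 0.54, and UAP1, which makes the last, fell by 0.43. CMAS, which makes CMP-sialic acid, fell by 0.62, with 59.7 CPM after LSD1 RNAi and 91.9 CPM after control RNAi, whereas its transporter gene SLC35A1 rose. These 4 had the smallest adjusted p of the list, at most 0.000119 (edgeR). The PAPS synthase genes PAPSS1 and PAPSS2 had log2 fold changes of -0.16 and -0.05 that did not pass, as did those of the PAPS carriers. With no normalization factor 5 genes of this list rose and 7 fell. By DESeq2, 2 rose and 6 fell, and 6 fell in edgeR without LSD1 RNAi replicate 2 or without control RNAi replicate 1. Of 5 luminal nucleotidase genes, whose enzymes break down the spent nucleotide, 2 rose and 0 fell. That is 40.0% called, beside 36.1% of all genes, in a list too short to give a direction. BPNT2, which clears the product of PAPS use, rose by 0.39 on the log2 scale (edgeR adjusted p = 0.000472) and ENTPD6 by 0.26 (edgeR adjusted p = 0.0181), and 1 of these 2 was called by DESeq2, without LSD1 RNAi replicate 2 or without control RNAi replicate 2.

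The glycosyltransferases and sulfotransferases that use the carried substrates went both ways. Over all 7 lists of genes around the transporters, 27 of 106 tested genes rose and 26 fell, or 50.0% called, beside 36.1% of all genes, with a median log2 fold change of -0.03. DESeq2 called 17 higher and 18 lower, beside 25.5% of all genes, and 18 were called higher without control RNAi replicate 2 and 18 lower without control RNAi replicate 1. Of 12 sialyltransferases tested 5 rose and 2 fell, or 41.7% and 16.7%, beside 18.2% and 17.9% of all genes. The 5 were 3 by DESeq2, with rows summed, without LSD1 RNAi replicate 2 or without control RNAi replicate 2. ST6GAL1, which adds sialic acid to N-glycans, had 184 CPM after LSD1 RNAi and 103 CPM after control RNAi (log2 fold change 0.84), and ST3GAL3 rose by 0.77. ST6GALNAC1, which makes the sialyl-Tn antigen, rose by 1.49, at a low level of 4.26 CPM after LSD1 RNAi and 1.51 CPM after control RNAi. ST6GAL2 fell by 1.03 on the log2 scale. Of 9 fucosyltransferases tested 1 rose and 2 fell, or 33.3% called beside 36.1% of all genes. FUT8, which adds core fucose, fell by 0.43 and POFUT4, formerly FUT11, by 0.52, while FUT2 rose by 1.05 at 1.87 CPM after LSD1 RNAi and 0.895 CPM after control RNAi. The FUT2 call was lost when any 1 library was left out, and DESeq2 gave it no adjusted p.

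Of 18 galactosyl- and N-acetylglucosaminyltransferases tested 6 rose and 3 fell, or 33.3% and 16.7%, beside 18.2% and 17.9% of all genes. B3GNT5, which starts lacto-series glycolipids, had 64.7 CPM after LSD1 RNAi and 161 CPM after control RNAi and fell by 1.31 on the log2 scale (edgeR adjusted p = 1.5e-13). C1GALT1, which makes core 1 O-glycans, fell by 0.76, while B3GNT3 rose by 0.65 and B4GALT5, a lactosylceramide synthase, by 0.53. Of 15 genes for the proteoglycan linker and chains 4 rose and 6 fell, or 26.7% and 40.0%, beside 18.2% and 17.9% of all genes. The 6 were 2 without control RNAi replicate 1, 3 without LSD1 RNAi replicate 1, 4 without either replicate 2 or with rows summed, and 3 by DESeq2, which called 2 higher. EXTL3 rose by 0.62 and B3GALT6, a galactosyltransferase of the linker, by 0.52, while XYLT2, which starts the linker, and EXT1, a heparan sulfate polymerase, each fell by 0.43. The EXT1 call was lost without control RNAi replicate 1. Of 17 sulfotransferases tested 5 rose and 3 fell, or 29.4% and 17.6%, beside 18.2% and 17.9% of all genes. The 5 were 3 without LSD1 RNAi replicate 2 or without control RNAi replicate 1. CHST12, a chondroitin sulfotransferase, rose by 0.80 and CHST3 by 0.45, while CHST2 fell by 0.62 and the tyrosine sulfotransferase gene TPST1 by 0.77. The CHST3 call was lost without LSD1 RNAi replicate 2.

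**Figure D4:**
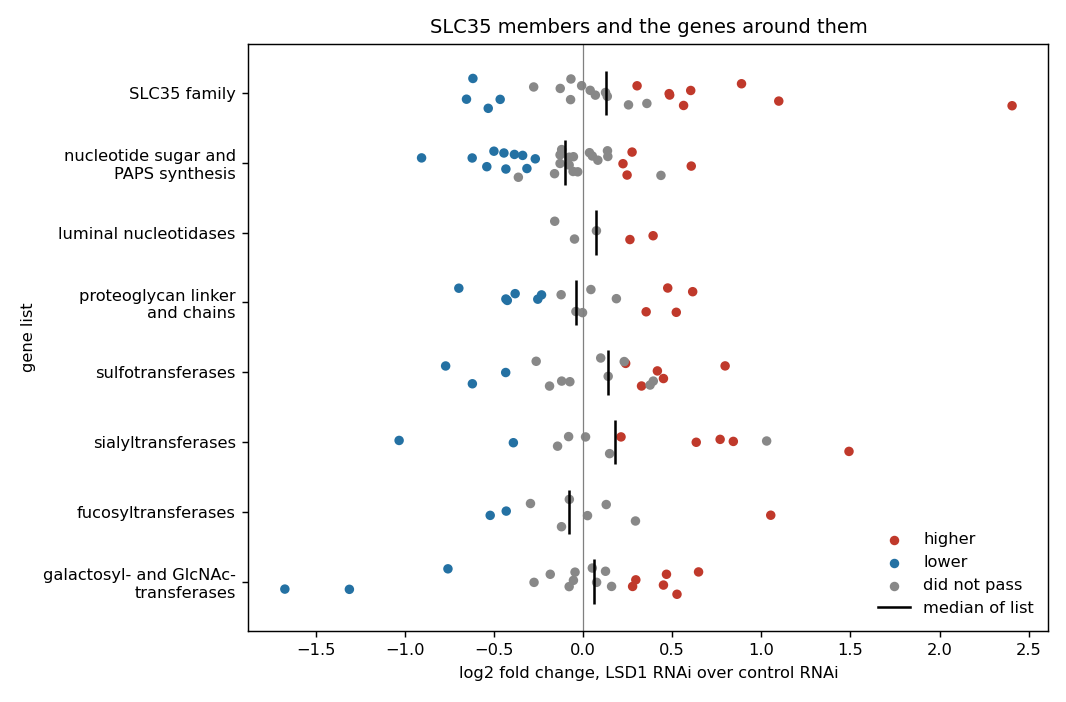
Log2 fold change of LSD1 RNAi over control RNAi for each tested SLC35 member and for each tested gene of the 7 lists around the transporters, with red for higher, blue for lower, grey for genes that did not pass and a black line for the median of each list. The median lies at 0.13 for the SLC35 family and at -0.10 for the synthesis genes, and every row with at least 9 genes holds genes on both sides of 0.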

How the data were processed

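The 4 deposited tables, which have no header, hold whole-number read counts for each RefSeq transcript, and nothing in the values points to scaling by the authors. Per the submitters' processing notes, TopHat2, HOMER, edgeR, DESeq 1.8.3 and hg19 were used, with no roles stated. The library kit, strand and counting settings were not stated.

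Each table held 38767 rows. Accessions gave symbols for 37205 rows in the RefSeq gene table (GRCh38.p14) and for 481 more in GENCODE 29 metadata. The 1081 unmatched rows, with 1.38% to 1.40% of counts, entered neither library sizes nor tests. Counts were filtered with filterByExpr (count of 10, total of 15), scaled by TMM and tested with edgeR 4.0.16 in R 4.3.3 by the quasi-likelihood test, group as the only term, adjusted over 13248 genes at 0.05. Standard errors and 95% intervals come from that fit, and CPM use TMM-scaled library sizes, with 2 libraries a group. Intervals and floors of 3 counts cover counting error and the spread of these libraries only. The test was checked on simulated counts with 200 changed genes and the same spread for every gene. In these data 4789 genes were called, so that check had an easier setting and does not vouch for the calls here. Chi-square per gene was 4.34 between the LSD1 RNAi libraries and 5.15 between the control RNAi libraries, more than counting noise alone gives.

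Members and gene lists were chosen with earlier results of these data known, as were the 7-mers and motifs. Named genes were KDM1A, every member and, from each other list, up to 4 called genes with the smallest adjusted p, or all called where 5 or fewer were. PAPSS1, PAPSS2, the markers with changes and the genes that overlap members were added after their values were seen. Lists are described by counts and medians, without a list test. Lengths, overlaps and shared sequence come from GENCODE 29 (GRCh38), another build than hg19. Tried as alternatives were DESeq2 1.42.0, limma-voom (limma 3.58.1), scaling by DESeq2 size factors or by library size alone, filtering at 1 CPM in 2 libraries or not at all, a replicate block, sums over rows, unmatched rows kept and leaving out each library. Python 3.11.15 was used. Some marker genes are not reported here.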

Additional observations from a re-analysis of the deposited data

How the results depend on the processing

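The 12 SLC35 members called by edgeR kept their direction and their call in all 13 alternatives, 156 values in all. SLC35F5, whose rise was known when the family was put forward, is among them, and the other 11 kept theirs too. When a library was left out, 8 to 9 SLC35 members were called higher and 4 to 5 lower. Of 143 values of members that did not pass, 132 stayed there in the same direction, 3 came to pass (SLC35A3, SLC35B1 and SLC35B3) and 8 turned sign without passing. The log2 fold changes that turned sign when a library was left out ranged from -0.279 to 0.039 for SLC35B1, from -0.224 to 0.067 for SLC35B2, from -0.072 to 0.049 for SLC35B4, from -0.011 to 0.15 for SLC35E2B and from -0.071 to 0.157 for SLC35F6. The SLC35B4 log2 fold change was also 0.026 with no normalization factor, which moved the median of all genes by 0.035. For all genes called higher, DESeq2 gave 1564 against 2414 by edgeR, and for the pathway genes called higher 17 against 27. The cause was not tested. Of the 53 called pathway genes, 27 lost the call in at least 1 alternative and 0 turned sign. With the replicate number as a block, 8 members were called higher and 4 lower, and 2632 of all genes called higher and 2635 of all genes called lower were counted. The block moved the galactosyl- and N-acetylglucosaminyltransferases called lower to 5, against 3. The differences between replicates 1 and 2 correlated at 0.0794 between the groups. Counting noise lowers such a value, so it cannot settle whether samples of the same number were paired, and the labels do not say. Where leaving out a library leaves 1 in a group, it is assumed to vary like the other group.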

Other observations

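TMEM144, which RefSeq also lists as SLC35G7 and which the naming rule did not take, had 135 and 147 counts, or 11.04 and 11.4 CPM, in LSD1 RNAi libraries, against 60 and 61 counts, or 4.83 and 5.02 CPM, in control RNAi libraries. Its ratio of 2.27 (95% interval 1.78 to 2.91, edgeR adjusted p = 2.18e-06) exceeded that of every member except SLC35F5. It was picked after its values were seen. SLC35E2A, left out as a pseudogene, had 48.0 and 55.5 CPM after LSD1 RNAi and 45.1 and 50.0 CPM after control RNAi, which overlapped, and its ratio of 1.09 did not pass (95% interval 0.949 to 1.25). Among 207 tested solute carrier genes outside the SLC35 family, 68 rose and 24 fell, or 44.4% called beside 36.1% of all genes. Called higher were 32.9% of them, beside 34.8% of SLC35 members and 18.2% of all genes, with a median log2 fold change of 0.10.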
